A study of Mus musculus with 16 samples.

Results

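Expression of 8 genes used as markers of radial glia and of the neuroepithelium (Nes, Vim, Fabp7, Slc1a3, Prom1, Msi1, Ptprz1 and Ednrb) was followed in mouse embryonic stem (ES) cells and in embryoid bodies made from them. The genes were chosen by name. All 8 had a row among the 27807 genes of the table, and all 8 were among the 16124 genes tested, which had a mean of at least 10 normalised read counts over the libraries. Fabp7 reached that minimum through the wild-type EB8 libraries alone, since its mean over the other 14 libraries was 5.34, so the counts in which its EB8 level decides a call are also given without it.

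Polyadenylated RNA was sequenced in 16 libraries, 2 for each of 8 groups. The groups were labelled Taf4+/+ (WT) or Taf4-/- (KO) at 4 stages, namely ES cells, embryoid bodies before retinoic acid was added (EB4), embryoid bodies after its first day (EB5), and embryoid bodies later in the treatment, which the labels call neural precursor cells (EB8). WT and KO lines alike came from blastocysts of crosses between carriers of a Taf4a allele that lacks internal exons, were grown on inactivated mouse embryonic fibroblasts with LIF, and were differentiated by the same retinoic acid protocol. Taf4a encodes a subunit of the general transcription factor TFIID. Per the study there were 2 independently derived lines for either genotype, but the labels of the libraries give only a replicate number, so that the p-values measure the spread between the libraries of a group and nothing more.

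Depth ran from 22442118 to 40711826 reads per library. All ES libraries (32631020 reads or more) were deeper than all embryoid body libraries (27685306 or fewer), so that a step in depth goes with the step from ES cells to EB4 and its part in that change was not tested. Reads of Taf4a were not fewer in the KO-labelled libraries (1972.8 to 2400.0 normalised counts, against 1590.9 to 1959.6 in WT), and a count per gene does not show which exons the reads came from, so genotypes are named as labelled. At EB8 the neural precursor marker Pax6 stood at 5447.0 and 5317.2 normalised counts in the WT libraries, against 837.7 and 361.1 in those of KO. Of 12 neural stem cell and radial glia genes tested, Pax6 among them, 8 were lower in KO at EB8 and none was higher (limma, adjusted p under 0.05). Over all genes tested, 12.5% were lower and 10.4% higher. Hes5, among the 8, reached the minimum mean for testing only through the WT EB8 libraries, so its call is no independent support. Sox2 (log2 change 0.15) and Lhx2 (0.50), from the same list, were not lower. The summed counts of 7 pluripotency genes were lower in WT (1382.0 and 1766.0) than in KO (24619.9 and 27777.2). The label of neural precursor cells was thus not matched equally by both genotypes. In bulk RNA, fewer cells of a type and less RNA per cell cannot be told apart, which holds for each difference that follows.

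Neuroepithelial cells line the neural tube, divide at its inner surface and give rise to radial glia, the elongated progenitors from which neurons and later astrocytes are born. Nestin and vimentin are intermediate filament proteins of both cell types. Fabp7 and Slc1a3 are classical radial glial genes, and Prom1 marks the apical membrane of the progenitors. None of these genes is restricted to neural cells, as vimentin is abundant in fibroblasts and other mesenchymal cells, and Ednrb is best known for its role in the neural crest.

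The sequence before the annotated start of transcription is shown for 4 of the genes, 3 whose RNA was lower in KO at EB8 (Fabp7, Slc1a3 and Ednrb) and 1 for which no difference passed the test at that stage (Ptprz1). The windows come from the RefSeq promoter table (GRCm38.p6), in which 7 of the 8 genes were found, Prom1 with 2 windows. Each was placed on the build of the data (NCBI37) by an exact match. They are written on the strand of the gene, from 5′ to 3′, up to the start of transcription or of the annotated exon. Capitals mark, on either strand, the letters of the NFY motif CCAAT, of the Sp1 motif GGGCGG, of the TATA box TATAAA and of the RBPJ core TGGGAA, a match on the other strand being written as its reverse complement. The Fabp7 window (chr10:57504479-57504686, plus strand, 208 bases) ended at the first annotated exon of the gene.
Fabp7: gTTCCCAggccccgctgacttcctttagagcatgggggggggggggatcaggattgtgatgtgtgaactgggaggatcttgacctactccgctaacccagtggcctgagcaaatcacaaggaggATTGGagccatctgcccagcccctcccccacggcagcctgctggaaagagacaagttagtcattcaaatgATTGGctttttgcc
The Slc1a3 window (chr15:8660808-8661057, minus strand, 250 bases) lay upstream of the annotated gene.
Slc1a3: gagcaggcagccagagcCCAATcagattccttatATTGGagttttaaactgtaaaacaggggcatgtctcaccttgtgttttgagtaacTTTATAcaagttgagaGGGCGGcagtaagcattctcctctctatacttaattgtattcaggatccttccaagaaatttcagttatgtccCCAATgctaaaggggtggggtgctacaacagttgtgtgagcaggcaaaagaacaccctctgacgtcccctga
The Ednrb window (chr14:104242919-104243168, minus strand, 250 bases) lay in an intron of the annotated gene, whose longer transcripts start further upstream.
Ednrb: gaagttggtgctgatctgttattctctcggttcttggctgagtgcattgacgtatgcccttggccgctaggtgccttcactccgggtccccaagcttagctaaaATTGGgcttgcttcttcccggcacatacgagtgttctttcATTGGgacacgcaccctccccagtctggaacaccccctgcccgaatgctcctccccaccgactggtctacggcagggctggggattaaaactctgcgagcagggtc
The Ptprz1 window (chr6:22825252-22825501, plus strand, 250 bases) ended at the base before the annotated gene.
Ptprz1: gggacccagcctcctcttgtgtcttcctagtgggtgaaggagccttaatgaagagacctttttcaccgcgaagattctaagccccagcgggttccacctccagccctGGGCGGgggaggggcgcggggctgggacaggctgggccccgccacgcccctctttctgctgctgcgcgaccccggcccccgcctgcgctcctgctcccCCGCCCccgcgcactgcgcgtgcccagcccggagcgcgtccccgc

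CCAAT occurred before the start in 5 of the 7 genes found. There were 3 copies in Slc1a3, 2 each in Fabp7, Ednrb and Vim, and 1 in the first window of Prom1. It was not among the letters before the starts of Nes and Ptprz1. GGGCGG occurred in 4 of the 7, with 2 copies each in Nes and Ptprz1 and 1 each in Slc1a3 and the first window of Prom1. Over all 32851 windows of the table, 33.85% held CCAAT and 32.742% held GGGCGG before the start. TATAAA, present in 12.368% of the windows, was found in Vim with its first base 32 bases before the start and in Slc1a3 on the opposite strand. All 250 bases before the RefSeq start of Vim lay in exon sequence of the gene as annotated on NCBI37, so its TATAAA and CCAAT matches did too. TGGGAA (21.594% of windows) was found in Fabp7 and in the first window of Prom1. ACAAAG and ACAATG, the SOX motifs searched (16.462% and 10.691%), and the E box CAGCTG (13.001%) were not among the letters before the start in any of the 7 genes. None of these motifs is contained in another, and no matches overlapped. These are matches of letters and do not show binding.

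The first question was how the markers behaved as WT cells differentiated. Between EB4 and EB8, 5 of the 8 rose in WT (limma on log2(normalised count + 1), Benjamini-Hochberg adjusted p under 0.05), where 15% of all genes tested rose and 12.2% fell (2417 and 1975 genes, or 2015 and 2708 with upper-quartile rescaling, which moved the median of all genes from −0.01 to −0.16). The 5 were Vim, Fabp7, Slc1a3, Msi1 and Ednrb, or 4 of 7 without Fabp7. Each followed its own course on the way there, as the plot of values by library shows.

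**Figure D1:**
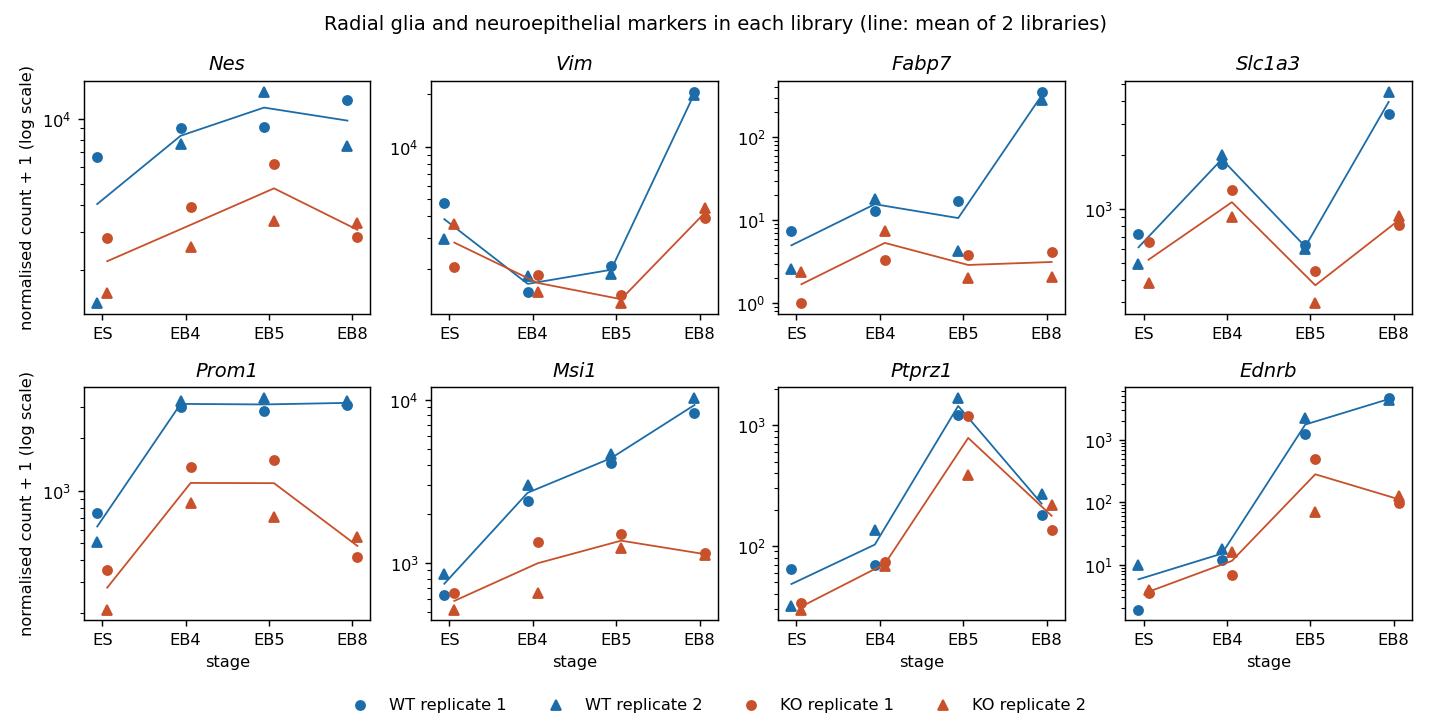
Normalised read count plus 1 (log axis, a scale of its own in each panel) of the 8 genes at the 4 stages. Circles and triangles are the single libraries of WT (blue) and KO (orange), and lines join the means of the 2 libraries. Blue and orange points separate most widely at EB8, where Fabp7 reached 353.9 and 280.6 in WT but only 3.2 and 1.1 in KO, while the points of Ptprz1 overlap there.

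Vim (ENSMUSG00000026728, chromosome 2, 13495554 to 13504453, plus strand), which encodes vimentin, had 4755.6 and 2955.5 normalised counts in the WT ES libraries and 1481.8 and 1817.5 at EB4. It stayed at 2088.1 and 1881.1 at EB5 and stood at 20563.4 and 19597.9 at EB8. The stage values did not overlap between EB4 and ES or between EB8 and EB5. Vim thus fell before retinoic acid (log2 change −1.19, SE 0.264, adjusted p = 0.0113) and rose 12.2-fold from EB4 to EB8 (3.61, adjusted p = 3.14e-06), with a log2 change of 0.27 from EB4 to EB5 and of 3.34 from EB5 to EB8. The fall between ES and EB4 missed the threshold without WT ES replicate 1 (−0.85, adjusted p = 0.0703) and without WT EB4 replicate 1 (−1.04, adjusted p = 0.0673).

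Nes (ENSMUSG00000004891, chromosome 3, 87775000 to 87784373, plus strand), which encodes nestin, was already abundant in one of the WT ES libraries, with 6666.1 against 1407.2 normalised counts in the other. It had 9046.2 and 7605.8 at EB4, 9155.8 and 13298.4 at EB5 and 12103.6 and 7453.8 at EB8. All embryoid body values lay above both ES values, but the change from ES to EB4 missed the threshold (log2 change 1.44, SE 0.573, adjusted p = 0.104). Without WT ES replicate 1, the library with the high value, it passed (2.56, adjusted p = 0.00705). From EB4 to EB8 the log2 change was 0.20 (95% interval −1.05 to 1.44), and the libraries overlapped.

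Fabp7 (ENSMUSG00000019874, chromosome 10, 57504687 to 57508256, plus strand) encodes the brain fatty acid binding protein. Its counts were 6.4 and 1.6 in WT ES cells, 12.1 and 17.2 at EB4, 16.0 and 3.3 at EB5 and 353.9 and 280.6 at EB8. Only the EB8 libraries stood far above the floor of detection, which was set at 3 reads. From 27 reads in the EB4 libraries to 602 in the EB8 libraries the ratio was 21.7 (95% counting interval 14.8 to 33.2), and the rise passed the test both from EB4 (log2 change 4.36, adjusted p = 0.00242) and from EB5 (5.21, adjusted p = 0.00262).

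Slc1a3 (ENSMUSG00000005360, chromosome 15, 8584124 to 8660764, minus strand) encodes the glial glutamate transporter GLAST. It went up, down and up again, with 727.2 and 490.3 normalised counts in ES cells, 1784.2 and 2012.7 at EB4, 629.5 and 598.5 at EB5 and 3416.0 and 4542.1 at EB8. None of these 4 pairs overlapped the next. The log2 changes were 1.66 from ES to EB4 (adjusted p = 0.00454), −1.62 from EB4 to EB5 (adjusted p = 0.0101) and 2.68 from EB5 to EB8 (adjusted p = 0.000267). The drop at EB5 lost the threshold without WT EB4 replicate 1 (adjusted p = 0.0542), without WT EB4 replicate 2 (0.0559) or without WT EB5 replicate 2 (0.0932). The net rise from EB4 to EB8 (1.06, adjusted p = 0.0217) lost it without WT EB4 replicate 1 (0.117), WT EB4 replicate 2 (0.0523) or WT EB8 replicate 2 (0.156).

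Prom1 (ENSMUSG00000029086, chromosome 5, 44384864 to 44493271, minus strand) encodes prominin-1, also known as CD133, a protein of membrane protrusions. It rose before retinoic acid and differed little between the later stages, with 740.9 and 505.5 normalised counts in ES cells, 3012.8 and 3265.1 at EB4, 2842.7 and 3389.9 at EB5 and 3086.3 and 3275.8 at EB8. The change from ES to EB4 was 2.36 on the log2 scale (SE 0.359, adjusted p = 0.00228). From EB4 to EB8 it was 0.02 (95% interval −0.76 to 0.80), and its sign turned with upper-quartile rescaling (−0.13).

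Msi1 (ENSMUSG00000054256, chromosome 5, 115879608 to 115905707, plus strand), which encodes the RNA-binding translational regulator Musashi-1, had higher counts at each successive stage. Its counts were 633.5 and 852.3 in ES cells, 2390.3 and 2982.1 at EB4, 4113.1 and 4640.7 at EB5 and 8309.6 and 10220.4 at EB8, with no overlap between successive stages. The steps from ES to EB4 (log2 change 1.86, adjusted p = 0.00236) and from EB5 to EB8 (1.08, adjusted p = 0.0333) passed the test, while the step from EB4 to EB5 did not (0.71, adjusted p = 0.26). The step from EB5 to EB8 lost the threshold when any of its 4 libraries was left out (adjusted p 0.0772 to 0.204). An antisense gene overlaps each of Prom1 (Gm16401, 1.7 to 26.5 normalised counts over the libraries) and Msi1 (4930430O22Rik, 0.0 to 3.8), and the library kit does not mark strand.

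Ptprz1 (ENSMUSG00000068748, chromosome 6, 22825502 to 23002916, plus strand), a receptor tyrosine phosphatase of glial progenitors that binds pleiotrophin and midkine, peaked at EB5. It had 63.7 and 31.1 normalised counts in WT ES cells, 68.0 and 135.1 at EB4, 1206.4 and 1675.7 at EB5 and 178.5 and 267.9 at EB8. Both EB5 values were above all others. It rose 14.2-fold from EB4 to EB5 (log2 change 3.88, SE 0.537, adjusted p = 0.00132) and fell from EB5 to EB8 (−2.70, adjusted p = 0.00784). The fall missed the threshold without WT EB5 replicate 2 (adjusted p = 0.0519) or without WT EB8 replicate 1 (0.0633).

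Ednrb (ENSMUSG00000022122, chromosome 14, 104213842 to 104243390, minus strand) encodes the endothelin B receptor. It was close to the floor in WT ES cells (0.9 and 8.8 normalised counts) and at EB4 (11.0 and 17.2), and stood at 1244.0 and 2286.3 at EB5 and 4690.9 and 4339.9 at EB8. From 26 reads at EB4 to 3404 reads at EB5 the ratio was 122.0 (95% counting interval 83.4 to 188.0). The log2 change was 6.84 from EB4 to EB5 (SE 0.867, adjusted p = 0.000695) and 8.26 from EB4 to EB8 (adjusted p = 3.52e-05), the highest of the 8 genes. From EB5 to EB8 it was 1.42 (adjusted p = 0.352).

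Counted over the first step, 3 of the 8 rose from ES to EB4 in WT (Slc1a3, Prom1 and Msi1) and 1 fell (Vim), against 8.98% and 7.57% of all genes tested. From EB4 to EB5, 2 rose (Ptprz1 and Ednrb) and 1 fell (Slc1a3), against 2.59% and 1.14%. From EB5 to EB8, 4 rose (Vim, Fabp7, Slc1a3 and Msi1, or 3 of 7 without Fabp7) and 1 fell (Ptprz1), against 5.82% and 4.62%. The comparisons of EB5 with its neighbours were added after the values had been seen. Median levels of chromosome 8 in WT replicate 1 and of chromosome X in WT replicate 2 differed between ES and EB4. The part of this in the WT changes from ES to EB4 was not tested. Per kilobase of exon, the mean normalised count at WT EB8 was 8599.8 for Vim, 1597.4 for Msi1, 1524.1 for Nes, 1118.5 for Ednrb, 704.2 for Prom1, 466.1 for Slc1a3, 253.8 for Fabp7 and 27.7 for Ptprz1. The libraries of Nes overlapped those of both its neighbours in that order, Msi1 and Ednrb.

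The second question was whether the KO-labelled cells carried these markers at the same level at each stage. At ES, 0 of the 8 passed the test, and limma called 0% of all genes tested (DESeq2 called 104 higher and 372 lower). At an unadjusted limma p under 0.05 there was 1 (Prom1, against 11.4% of all genes tested), and edgeR and DESeq2 also gave 0 of the 8. Prom1 had 348.7 and 207.3 normalised counts in KO ES cells against 740.9 and 505.5 in WT, which did not overlap (log2 change −1.18, adjusted p = 0.212). Both KO values also lay below both WT values for Fabp7, so that this held for 2 of the 8, against 20.7% of all genes tested. The Nes values were 2827.5 and 1574.5 in KO, inside the WT range, and the sign of the Nes difference rested on WT ES replicate 1, as it was −0.54 on the log2 scale with that library and 0.58 without it.

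Summed over 9 fibroblast genes, the normalised counts at ES came to 1062.2 and 2743.5 for WT against 215.0 and 516.0 for KO, with Lum at the floor in both. At EB8 the sums for WT (2484.6 and 3508.8) lay inside those for KO (1522.5 and 3939.3). Between genotypes, 0 of the 8 fibroblast genes tested passed limma's threshold at any stage. At ES limma called 0% of all genes tested, so the count there does not set these genes apart. Their median log2 change was −2.15 at ES and −0.52 at EB8, where limma called 12.5% of all genes tested lower and 10.4% higher. Replicate 1 of WT ES, in which Nes and Vim were high, had the lower of the WT sums. The part of feeder cells in the ES levels was not tested.

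At EB4, 2 of the 8 were lower in KO and none was higher, against 3.37% and 2.75% of all genes tested. Msi1 had 1334.1 and 650.8 normalised counts in KO against 2390.3 and 2982.1 in WT (log2 change −1.52, SE 0.289, adjusted p = 0.0147). Prom1 had 1364.5 and 849.9 against 3012.8 and 3265.1 (−1.54, SE 0.359, adjusted p = 0.0307). Both calls depended on single libraries. Without KO EB4 replicate 2, which had the lower values, the adjusted p was 0.14 for Msi1 and 0.274 for Prom1, and without WT EB4 replicate 2 it was 0.0783 and 0.113. Without WT EB4 replicate 1 Prom1 alone lost the threshold (0.0902). Leaving out the other stages from the fit gave 0.175 and 0.141, with no gene of the table called.

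The other genes at EB4 gave no call. Nes had 3917.1 and 2556.1 in KO against 9046.2 and 7605.8 in WT (log2 change −1.39, adjusted p = 0.171), and Slc1a3 had 1279.2 and 901.0 against 1784.2 and 2012.7 (−0.82, adjusted p = 0.129), with no overlap for either. Fabp7 had 2.3 and 6.4 against 12.1 and 17.2, or 7 reads in KO and 27 in WT, a ratio of WT to KO of 3.43 (95% counting interval 1.46 to 9.32). Vim (1850.5 and 1490.5 in KO), Ptprz1 (72.4 and 67.6) and Ednrb (5.8 and 15.3) overlapped their WT values. In all, both KO values lay below both WT values for 5 of the 8 genes, against 26.6% of all genes tested.

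At EB5, 1 day into retinoic acid, 2 of the 8 were again lower in KO, against 2.17% of all genes tested, and none was higher (2.17%). Both KO values were below both WT values for all 8 genes, an arrangement found for 28.1% of all genes tested. Msi1 had 1505.6 and 1224.7 in KO against 4113.1 and 4640.7 in WT (log2 change −1.69, SE 0.289, adjusted p = 0.0128), and Prom1 had 1501.8 and 705.9 against 2842.7 and 3389.9 (−1.59, SE 0.359, adjusted p = 0.0319). Msi1 lost the threshold without KO EB5 replicate 2 (adjusted p = 0.192) or WT EB5 replicate 2 (0.0947). Prom1 lost it without KO EB5 replicate 2 (0.348), WT EB5 replicate 1 (0.0841) or WT EB5 replicate 2 (0.178).

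The KO libraries disagreed most for Ednrb and Ptprz1 at this stage. Ednrb had 492.1 and 69.8 normalised counts in KO, which differed 7.05-fold between the libraries, against 1244.0 and 2286.3 in WT (log2 change −3.17, SE 0.867, adjusted p = 0.0602). Without KO EB5 replicate 1, the library with the higher value, the change was −4.57 and passed (adjusted p = 0.0227), and without KO EB5 replicate 2 it was −1.78 (0.537). It also passed with DESeq2 (0.0364), quantile normalisation (0.0497), a pseudocount of 5 (0.0309) and a crossed replicate block (0.0236), and missed the threshold in the other alternatives. The crossed block paired libraries of unlike number, a pairing picked from these same data, so that pass is no independent support. Ptprz1 had 1184.2 and 382.1 against 1206.4 and 1675.7 (−1.08, adjusted p = 0.279). Nes had 6158.9 and 3374.5 against 9155.8 and 13298.4, Vim 1421.2 and 1277.1 against 2088.1 and 1881.1, and Slc1a3 450.3 and 294.8 against 629.5 and 598.5, with log2 changes of −1.28, −0.56 and −0.75 that did not pass (adjusted p 0.23, 0.256 and 0.181). Fabp7 was at or under 3 reads in each KO library, with 4 reads in KO and 20 in WT.

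At EB8, 6 of the 8 genes were lower in KO and none was higher, against 12.5% and 10.4% of all genes tested. Without Fabp7 this was 5 of 7. The median log2 change of the 8 was −2.5, against −0.03 over all genes tested. Over all genes 1677 were higher and 2020 lower in KO, or 2237 and 1591 with upper-quartile rescaling, which moved the median of all genes to 0.11, and 2299 and 1816 with quantile normalisation. The 6 were the RNA-binding protein gene Msi1, the vimentin gene Vim, the apical marker Prom1, the transporter gene Slc1a3, the fatty acid binding protein gene Fabp7 and the receptor gene Ednrb. Each of the 6 calls held in every alternative processing tried and when any 1 of the EB8 libraries was left out, except that Fabp7 was not tested where the minimum mean was 50. The plot of log2 changes by stage gives these differences beside those of the earlier stages.

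**Figure D2:**
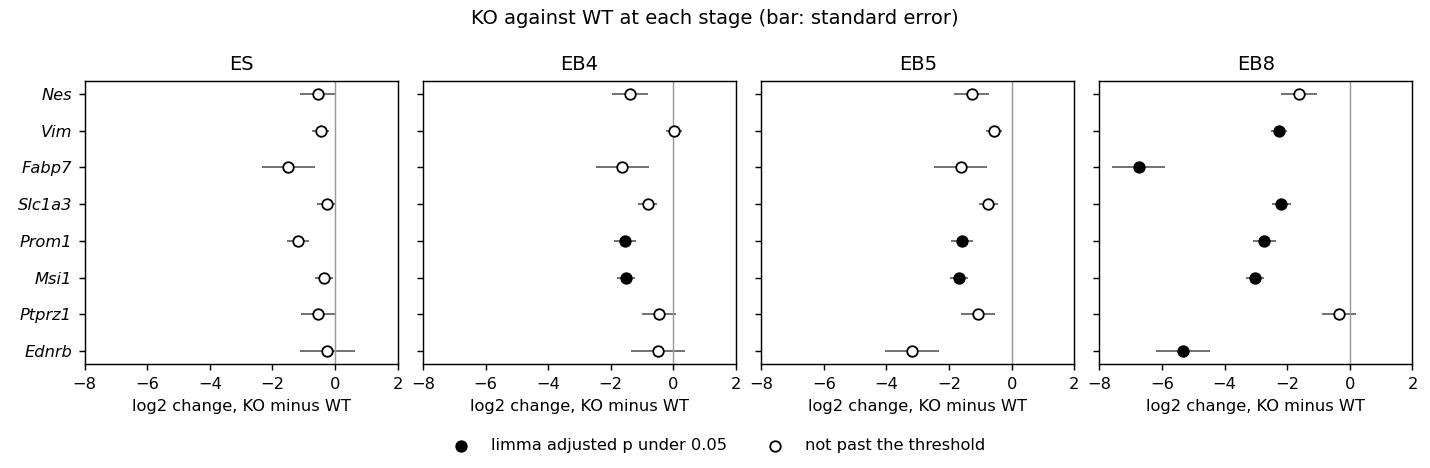
Log2 change of KO minus WT on log2(normalised count + 1) for the 8 genes at ES, EB4, EB5 and EB8, with standard errors from limma. Filled circles passed the threshold of 0.05 and open circles did not. Of the filled circles 0 are at ES, 2 each at EB4 and EB5 (Prom1 and Msi1) and 6 at EB8, where they run from −2.19 (Slc1a3) to −6.75 (Fabp7).

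Msi1 had 1147.9 and 1111.0 normalised counts in KO against 8309.6 and 10220.4 in WT, an 8.20-fold lower mean (log2 change −3.03, SE 0.289, adjusted p = 5.01e-05). Vim had 3909.0 and 4443.1 against 20563.4 and 19597.9, 4.81-fold lower (−2.27, SE 0.264, adjusted p = 0.000176). Vim in KO at EB8 was nonetheless at or above its level in the ES libraries of either genotype, apart from WT ES replicate 1. Prom1 had 418.9 and 545.4 against 3086.3 and 3275.8 (−2.73, SE 0.359, adjusted p = 0.000351), which put it below its KO level at EB4 and EB5. Slc1a3 had 809.2 and 917.2 against 3416.0 and 4542.1 (−2.19, SE 0.303, adjusted p = 0.000475).

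Ednrb had 98.1 and 124.6 normalised counts in KO at EB8 against 4690.9 and 4339.9 in WT, 40.5-fold lower (log2 change −5.34, SE 0.867, adjusted p = 0.00118). Fabp7 was read 4 times in the KO libraries together (3 and 1 reads) and 602 times in those of WT, a ratio of WT to KO of 150.0 with a 95% counting interval of 58.2 to 551.0 (log2 change −6.75, adjusted p = 0.000264). Both KO libraries were at the floor, so Fabp7 was not detectable in them above 3 reads. These intervals pool the reads of the 2 libraries of a group, so they cover counting error and not the spread between libraries. They also make no allowance for PCR copies of a molecule, which are counted as separate reads.

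Nes and Ptprz1 did not pass the test at EB8. Nes had 2830.7 and 3311.8 in KO against 12103.6 and 7453.8 in WT, with no overlap and a 3.18-fold lower mean (log2 change −1.63, SE 0.573, 95% interval −2.88 to −0.39, adjusted p = 0.0582). It passed in 5 of 15 alternatives, among them DESeq2 on recovered reads (adjusted p = 0.0114) and quantile normalisation (0.0461), and missed the threshold in the others. The lowest adjusted p, 0.00123, came from the crossed replicate block, whose pairing was picked from these same data and which is no independent support. With a single EB8 library left out, the log2 change ran from −1.98 to −1.28. Ptprz1 had 135.0 and 218.4 against 178.5 and 267.9, which overlapped, with a log2 change of −0.35 (95% interval −1.51 to 0.82, adjusted p = 0.684).

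The third question was whether the change during retinoic acid treatment differed between genotypes. In KO, 2 of the 8 rose from EB4 to EB8 (Vim and Ednrb, against 9.86% of all genes tested) and 1 fell (Prom1, against 8.67%), where 5 had risen in WT. Ednrb rose in KO from 5.8 and 15.3 to 98.1 and 124.6 (log2 change 3.40, adjusted p = 0.0184), and its WT change was 8.26. Vim rose from 1850.5 and 1490.5 to 3909.0 and 4443.1 (1.33, adjusted p = 0.00557), and its WT change was 3.61. Prom1 fell from 1364.5 and 849.9 to 418.9 and 545.4 (−1.17, adjusted p = 0.0403), and its WT change was 0.02.

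These KO calls leaned on single libraries. Prom1 lost the threshold when any of the 4 KO libraries was left out (adjusted p 0.0512 to 0.243). Ednrb lost it without KO EB4 replicate 1 (adjusted p = 0.119), KO EB8 replicate 1 (0.0661) or KO EB8 replicate 2 (0.0908), and Vim without KO EB4 replicate 2 (0.0512).

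The difference between the genotypes in the change from EB4 to EB8, tested as an interaction, passed for 2 of the 8, Vim and Fabp7, or 1 of 7 without Fabp7, which was among the genes tested only through the WT EB8 libraries. Both were negative, meaning less gain in KO, as for 1.71% of all genes tested, while 1.04% were called in the other direction. For Vim it was −2.29 on the log2 scale (SE 0.374, adjusted p = 0.0105), which held in all alternatives. For Fabp7 it was −5.12 (SE 1.20, adjusted p = 0.0417), which missed the threshold when any 1 of the 8 libraries was left out (adjusted p 0.0683 to 0.144), with edgeR (0.0704) and without a filter on low counts (0.0636). Ednrb (−4.86, adjusted p = 0.0583), Msi1 (−1.51, 0.0742), Slc1a3 (−1.37, 0.12) and Prom1 (−1.19, 0.261) were negative without passing, and Nes (−0.24) and Ptprz1 (0.10) were close to 0, with standard errors of 0.81 and 0.759. With the replicate number as a block within each genotype, an alternative added after the values were seen, Msi1 (adjusted p = 0.0183), Ednrb (0.0454) and Slc1a3 (0.0457) passed as well, and 456 genes of the table were called higher and 506 lower, against 168 and 276 without the block.

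**Figure D3:**
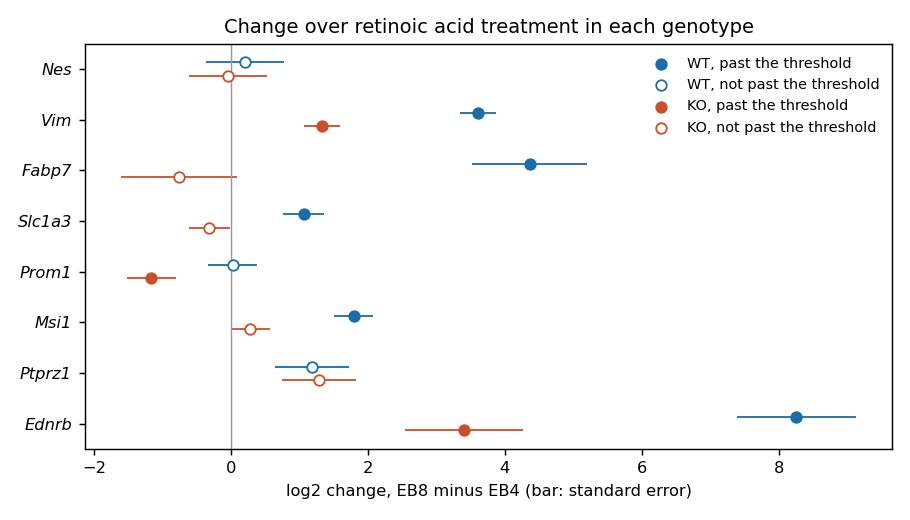
Log2 change from EB4 to EB8 on log2(normalised count + 1) for the 8 genes in WT (blue) and KO (orange), with standard errors from limma. Filled circles passed the threshold of 0.05 and open circles did not. The WT circles of Ednrb (8.26), Fabp7 (4.36) and Vim (3.61) lie farthest to the right, and the KO circles of the same genes are at 3.40, −0.76 and 1.33.

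Divided at EB5, the early step was alike in which genes were called. In KO as in WT, Ednrb and Ptprz1 rose and Slc1a3 fell from EB4 to EB5, 2 of the 8 against 1.82% of all genes tested and 1 of the 8 against 0.695%. The log2 changes in KO were 4.14 for Ednrb (adjusted p = 0.0254), 3.25 for Ptprz1 (0.0063) and −1.56 for Slc1a3 (0.0183), beside 6.84, 3.88 and −1.62 in WT. The interaction over this step gave 0 of the 8 and 0% of all genes tested by limma, with 1 of the 8 (Ednrb, −2.69) at an unadjusted limma p under 0.05, against 2.96% of all genes tested, and edgeR and DESeq2 also gave 0 of the 8. The KO calls were lost without 1 library in several cases. Without KO EB5 replicate 1 the adjusted p was 0.213 for Ednrb and 0.0804 for Ptprz1. Without KO EB4 replicate 1 it was 0.158 for Ednrb and 0.131 for Slc1a3, without KO EB4 replicate 2 it was 0.0646 for Ednrb and 0.056 for Ptprz1, and without KO EB5 replicate 2 it was 0.148 for Slc1a3.

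From EB5 to EB8 only Vim rose in KO (log2 change 1.63, adjusted p = 0.0186), 1 of the 8 against 0.428% of all genes tested, and none fell (0.31%). That call was lost when any of the 4 KO libraries was left out (adjusted p 0.0633 to 0.155). Slc1a3 went from 450.3 and 294.8 to 809.2 and 917.2 (1.24, adjusted p = 0.0887, or 0.0303 with the replicate block within each genotype) and Ptprz1 from 1184.2 and 382.1 to 135.0 and 218.4 (−1.96, adjusted p = 0.125), both without overlap. Ednrb went from 492.1 and 69.8 to 98.1 and 124.6, which overlapped. The interaction over this step gave 0 of the 8 by limma and by edgeR, against 0.781% of all genes tested called by limma (16 higher and 110 lower, or 42 and 118 with quantile normalisation). There were 5 at an unadjusted p under 0.05 (Vim, Fabp7, Slc1a3, Prom1 and Msi1, against 9.72%), and DESeq2 called 3 (Vim, Fabp7 and Slc1a3), against 3.03% of all genes tested (134 higher and 354 lower).

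Before retinoic acid, 1 of the 8 rose from ES to EB4 in KO (Prom1, against 2.51% of all genes tested) and none fell (0.992%). Prom1 went from 348.7 and 207.3 to 1364.5 and 849.9 (log2 change 2.00, adjusted p = 0.0164), beside 2.36 in WT. The call was lost without KO ES replicate 2 (adjusted p = 0.148) or without KO EB4 replicate 1 (0.121). Slc1a3 went from 654.2 and 382.4 to 1279.2 and 901.0 (1.10, adjusted p = 0.0661, or 0.0264 with the replicate block within each genotype) and Msi1 from 651.7 and 513.9 to 1334.1 and 650.8 (0.69, adjusted p = 0.194).

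Over the 16 libraries the 8 genes fell into more than one course. Nes, Prom1 and Msi1 went together most closely (Pearson r of log2 values 0.89 for Nes with Prom1, 0.87 for Prom1 with Msi1 and 0.79 for Nes with Msi1). Fabp7 with Slc1a3 had 0.83, Msi1 with Ednrb 0.84 and Ednrb with Ptprz1 0.80, whereas Vim with Ptprz1 had −0.08 and Slc1a3 with Ptprz1 −0.06. The libraries share stages, lines and normalisation, so these values are descriptive.

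Among all genes tested, those most like each marker over the 16 libraries were Bag2 and Fign for Nes (r 0.939 and 0.937), Mical2 and Lrrn3 for Vim (0.974 and 0.938), and Trp53i11 and Cntn2 for Fabp7 (0.944 and 0.934). They were Robo1 and Auts2 for Slc1a3 (0.93 and 0.925), Cadm1 and Sall2 for Prom1 (0.967 and 0.959) and Kif21b and Lrp3 for Msi1 (0.974 and 0.972). Ptprz1 was followed by Crabp2, a cellular retinoic acid binding protein gene, and E130309F12Rik (0.934 and 0.93), and Ednrb by Zfp618 and D230002A01Rik (0.973 and 0.971). Crabp2, like Ptprz1, was highest at EB5 (mean 32365 normalised counts in WT and 14607 in KO) and did not pass the test between genotypes at EB8 (log2 change −0.74, adjusted p = 0.28). Lrrn3, like Fabp7, reached the minimum mean for testing only through the WT EB8 libraries. Its mean was 121 there and 0.47 to 3.39 in the other groups, so its likeness to Vim rests on that group.

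Genes related to the markers by family or pathway were compared at EB8 as well, where limma called 12.5% of all genes tested lower in KO and 10.4% higher. Of 12 other neural stem cell and radial glia genes tested, 8 were lower in KO and none was higher (median log2 change −1.47, against −0.03 over all genes). The Notch target Hes5 had 14.8 and 5.3 normalised counts in KO against 810.7 and 1101.1 in WT (−6.57, adjusted p = 0.000239) and Pax6 had a log2 change of −3.29 (adjusted p = 0.00166). Hes5, like Fabp7, reached the minimum mean for testing only through the WT EB8 libraries, so its call is no independent support. At the other end, Sox2, a factor shared by pluripotent and neural stem cells, had 6517.1 and 3904.1 in KO against 3950.5 and 5240.9 in WT, and Lhx2 had a log2 change of 0.50, neither past the threshold. Sox1 was not analysed here.

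Of the intermediate filament family of Nes and Vim, 4 of 10 genes tested were lower and none was higher (median −0.38). The neuronal filament genes Ina (log2 change −4.45, adjusted p = 0.000152) and Nefm (−4.24, adjusted p = 0.000676) were the lowest, while Des (1.56) and Prph (1.60) did not pass. Of the fatty acid binding proteins, Fabp3, the heart form, was higher in KO, with 4210.8 and 3055.1 against 425.3 and 518.8 in WT (2.93, adjusted p = 0.000624), opposite in sign to Fabp7, and Fabp5 had −0.54 without passing. Of the 4 transporters related to Slc1a3, Slc1a2, the other main glial glutamate transporter, was lower in KO, with 35.9 and 51.1 against 1697.0 and 1273.7 (−5.07, adjusted p = 0.000533). Slc1a4 (−0.05), Slc1a1 (0.43) and Slc1a5 (0.73) did not pass.

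None of 5 endothelin system genes tested beside Ednrb passed at EB8, 0 being called in either direction by limma. The ligand gene Edn3 had 25.3 and 13.8 in KO against 127.1 and 48.7 in WT (log2 change −2.01, adjusted p = 0.0519), the receptor gene Ednra 110.8 and 319.6 against 492.5 and 420.3 (−1.27, adjusted p = 0.117), and the protease gene Ece1 and the ligand gene Edn1 had 0.09 and 0.42. Of 6 ligands and partners of Ptprz1, 3 were lower in KO (median −1.74), namely Cntn1, Nrcam and Tnr. Tnr, a matrix gene, was at 0 in both KO libraries and at 171.5 in WT replicate 2, several-fold above WT replicate 1 (adjusted p = 0.00379). Like Fabp7, Tnr reached the minimum mean for testing only through the WT EB8 libraries, chiefly replicate 2. Its call is therefore no independent support, and without it the genes called lower were Cntn1 and Nrcam. The adhesion gene Nrcam had 158.3 and 226.9 against 1807.2 and 2062.5 (−3.34, adjusted p = 0.000222). The ligand gene Mdk, at 21297.5 and 21004.4 against 27913.1 and 25934.7 (−0.35), and the matrix gene Tnc (−0.12) did not pass.

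Genes of the cell types that follow or accompany radial glia were set beside the markers at EB8, where 12.5% of all genes tested were lower in KO and 10.4% higher. All 8 neuronal genes tested were lower in KO at EB8 (median log2 change −4.68). The lowest were Dcx (−6.30, adjusted p = 0.000445) and Elavl4 (−5.77, adjusted p = 9.86e-06), and Tubb3 (−3.78) and Stmn2 (−1.69, adjusted p = 0.0417) passed as well. Both Tubb3 (2180.8 and 2262.7) and Stmn2 (5302.6 and 6490.7) were already abundant in WT ES cells. Tubb3 was higher in KO at EB4 (1.46, limma adjusted p = 0.0127) and at EB5 (1.6, 0.0128). Stmn2 did not rise in WT from EB4 to EB8 (−1.07). Of 6 astroglial genes tested, 2 were lower (Slc1a2 and Gja1) and 1 was higher (Aldh1l1), and Gfap, the defining astrocyte filament gene, stayed at 2.1 to 36.8 normalised counts in all 16 libraries. Gja1 was already abundant in ES cells (13722.6 and 8588.3 in WT, 8846.1 and 9222.7 in KO). It fell from EB4 to EB8 in WT (−1.44) and in KO (−2.44).

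Markers of other cell types moved with the genotype at EB8 in part, where 10.4% of all genes tested were higher in KO and 12.5% lower. Of 7 pluripotency genes 6 were higher in KO (median log2 change 3.94), with Nanog at 7989.0 and 8407.9 against 117.6 and 313.4. Of 6 neural crest genes, among which Ednrb is also active, 2 were higher (Sox10, 3.08, and Erbb3, 1.58) and 1 was lower (Tfap2b, −4.24), and their summed counts were lower in WT (2163.2 and 2660.7) than in KO (3660.0 and 2941.1). Erbb3 made up most of the KO sums (2900.4 and 2104.9, against 834.8 and 814.2 in WT) and was already abundant in ES cells, and the sums of the other 5 genes were higher in WT (1328.4 and 1846.5) than in KO (759.6 and 836.2). Of 5 endothelial genes 1 was higher (Tek, 2.46), against 10.4% of all genes tested, with sums for WT (899.9 and 872.4) inside those for KO (693.2 and 2243.4). Tek was already abundant in ES cells (734.5 and 920.1 in WT, 563.7 and 413.1 in KO). At EB8 it stood at 53.6 and 46.6 in WT and at 238.4 and 328.1 in KO. Of 6 primitive and visceral endoderm genes 2 were lower (Foxa2, −3.46, and Sox17, −2.68), with higher sums in WT (2825.9 and 2375.9) than in KO (1637.5 and 1889.7), Ttr being at the floor in KO. The part of these cells in the levels of the 8 markers was not tested.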

How the data were processed

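Polyadenylated RNA from ES cells and embryoid bodies was made into TruSeq libraries, which do not mark strand, and sequenced as single-end reads of 54 bases. Per the submitters' processing notes, CASAVA 1.7 and 1.8, TopHat2 2.0.10, HTSeq 0.5.4p3 and DESeq2 1.0.19 were used. The file as deposited gives a normalised signal for each gene on build mm9 (NCBI37), for which the authors divided its read count by the size factor of the library. Division by a step of each library (0.715 to 1.276 normalised counts) returned a whole number for 100.0% of values (tolerance 0.0001), so whole reads were recovered and give the depth. Coordinates and exons are from GENCODE M1, which held 27603 of the 27807 identifiers.

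The test was limma 3.58.1 (R 4.3.3) on log2(normalised count + 1) with a mean for each of the 8 groups over 16 libraries, a spread shared by the groups (8 residual and 4.27 prior degrees of freedom) and a trend with expression. The test covered the 16124 genes whose mean reached 10 normalised counts, with Benjamini-Hochberg adjustment over them and a threshold of 0.05. Fold changes on this scale understate the change of genes with low counts, so that of genes with few reads the ratio of reads is given with an exact binomial interval. The study used DESeq2. Here DESeq2 1.42.0 and edgeR 4.0.16 on the recovered reads served as alternatives, beside other pseudocounts, filters, scalings, a fit of only the groups compared, a replicate block across genotypes or within each and leaving out each library. The fits were tested on simulated data, where a looser limit on false calls was set for DESeq2 than for limma and edgeR. Calls made by DESeq2 alone are therefore to be read with more caution. Motifs were counted with Python 3.11.15. The 8 genes, the related lists and the tests were chosen with earlier results of these data known. The text names all 8 genes, from each related list the genes with the largest and the smallest changes at EB8, and for each of the 8 the closest genes by correlation. Genes of the lists named only in counts were chosen by their calls. Map2 is listed in the table under its older symbol Mtap2. None of the 8 genes lies on chromosomes X, 8 or 11, whose levels differed between libraries of a group. Median levels of the chromosomes that hold the 8 genes ran from −0.25 to 0.12 (log2, relative to the autosomes). The lowest was that of chromosome 6, which holds Ptprz1, at −0.25 and −0.06 in the KO ES libraries.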

Additional observations from a re-analysis of the deposited data

Results flagged for a closer look

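The change from EB4 to EB8 differed between the genotypes, by the interaction term of limma, for 2 of the 8 genes, against 1.04% of all genes tested called higher and 1.71% lower. For Vim the difference was −2.29 on the log2 scale (adjusted p = 0.0105), with both KO libraries at EB8 (3909.0 and 4443.1 normalised counts) below both WT libraries (20563.4 and 19597.9) and the EB4 libraries of the genotypes overlapping. For Fabp7 it was −5.12 (adjusted p = 0.0417, range over the alternatives 0.00477 to 0.168), with 4 reads in the KO EB8 libraries and 602 in those of WT. Fabp7 reached the minimum mean for testing only through these WT EB8 libraries (5.34 normalised counts without them), so its call is no independent support, and without it the count was 1 of 7.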

How the results depend on the processing

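With 2 libraries a group, 1 library decided many calls before EB8, and low counts limited Fabp7 in KO and Ednrb at ES and EB4. Of the values with no test past the threshold, the direction turned for Ednrb at ES with quantile normalisation (0.05), for Prom1 in WT from EB4 to EB8 with upper-quartile rescaling (−0.13) and from EB5 to EB8 with upper-quartile rescaling (−0.05) and quantile normalisation (−0.03), and for Fabp7 in KO from EB5 to EB8 with quantile normalisation (−0.10). Leaving out 1 library gave values of −1.66 to 0.58 for Nes, −0.64 to 0.13 for Slc1a3 and −1.41 to 0.94 for Ednrb between genotypes at ES, and −0.14 to 0.17 for Vim, −0.94 to 0.04 for Ptprz1 and −1.11 to 0.15 for Ednrb at EB4. It gave −0.04 to 0.08 for Prom1 in WT and −0.24 to 0.79 for Msi1 in KO from EB4 to EB8, and −0.09 to 0.16 for Prom1 in WT and −0.41 to 0.60 for Fabp7 in KO from EB5 to EB8. The cause was not tested.

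The count of the 8 genes called between genotypes was 2 at EB4 and 0 when only the groups compared were fitted, which leaves fewer libraries to estimate the spread. At EB5 it was 2, and 1 without a filter or with only the groups compared. The counts from ES to EB4 were 4 in WT and 1 in KO, both 0 with only the groups compared, and 2 in KO with DESeq2. That fit also took the 3 genes called from EB4 to EB5 in KO, and the 1 from EB5 to EB8 in KO, to 0, and DESeq2 took the latter to 4. For the difference between genotypes from EB4 to EB8, 2 became 1 with a pseudocount of 0.1, without a filter, with a minimum mean of 50 and with edgeR, 4 with quantile normalisation and 5 with DESeq2. For that from EB5 to EB8, 0 became 2 with a pseudocount of 5, 1 with quantile normalisation or only the groups compared, and 3 with DESeq2. Without 1 library the counts ran from 0 to 2 at EB4, 0 to 3 at EB5 and 6 to 6 at EB8 between genotypes, from 3 to 4 in WT and 0 to 1 in KO from ES to EB4, and from 1 to 2 in KO from EB4 to EB5. They ran from 1 to 1 in KO from EB4 to EB8, from 3 to 4 in WT and 0 to 0 in KO from EB5 to EB8, and from 1 to 2 for the difference from EB4 to EB8. Over all genes DESeq2 called more than limma at EB4 (904 higher and 1173 lower) and at EB5 (812 and 907), and fits of only the groups compared called fewer (0 at EB4, 50 and 22 at EB5).

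The labels do not say what a replicate number marks. Same-numbered differences between genotypes correlated at 0.335 at ES, −0.058 at EB4, −0.209 at EB5 and −0.133 at EB8. Those between stages correlated at 0.523 to 0.605 among the embryoid body stages of WT and at 0.233 to 0.422 among all stages of KO, but at −0.076 between ES and EB4 in WT. Median levels of a chromosome followed the number in the same way. Chromosome X was at 0.37 to 0.56 (log2, relative to the autosomes) in replicate 2 of KO at every stage and at −0.26 to −0.16 in replicate 1, and chromosome 8 at 0.38 to 0.40 in replicate 1 of the WT embryoid bodies but at −0.16 in that of WT ES. In replicate 2 of WT, chromosome X was at 0.49 in ES cells but at −0.27 to −0.16 in the embryoid bodies. With the replicate block across genotypes the count called from ES to EB4 in KO was 2 (Slc1a3 added, adjusted p = 0.0499), Nes passed at EB8 (0.0269), and no other call among the 8 changed. With the replicate block within each genotype, added after the values were seen and run on the stage comparisons other than ES to EB4 in WT, the counts were 2 from ES to EB4 in KO, 2 from EB5 to EB8 in KO and 5 for the difference from EB4 to EB8, and no call was lost. With the crossed replicate block, also added, the counts were 4 at EB5 and 7 at EB8, where 631 genes of the table were called higher and 757 lower at EB5 and 1712 and 2277 at EB8, against 350 and 350, and 1677 and 2020, without it. The crossed block paired libraries of unlike number and was run only at EB5 and EB8, where the correlations between genotypes were most negative. Its pairing was thus picked from these same data, so its calls are no independent support.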
